A study of Homo sapiens with 24 samples.

Results

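SW480 cells, a colorectal adenocarcinoma line, were compared after 24 h with either an activator or a blocker of the TGF-beta pathway. The activator was 4 ng/ml TGFB1, the cytokine itself, and the blocker was 1 µM RepSox, a small inhibitor of the kinase of the type I TGF-beta receptor (ALK5, encoded by TGFBR1). The libraries were chosen by their titles, and 8 of the 24 in the series qualified, 4 with TGFB1 and 4 with RepSox. In each arm 2 libraries came from cells infected with a lentivirus carrying Tet2CD, the catalytic domain of the 5-methylcytosine dioxygenase TET2, and 2 from cells with the empty vector. All cells had been selected with 5 µg/ml puromycin, so the controls also carried an integrated virus and the drug resistance. A further 4 SW480 libraries, 2 per construct, had been kept in DMSO, and SW620, a colorectal line from a metastasis, gave another 12 libraries under the same conditions. Ligand and treatment time are given here as in the labels, which do not match the study's text on either. Construct was held fixed throughout: each value is the mean of the difference within vector cells and the difference within Tet2CD cells, on the log2 scale and positive where TGFB1 libraries were higher than RepSox libraries.

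TGF-beta ligands are released from latent complexes and bring together type II and type I receptors, whose kinase phosphorylates SMAD2 and SMAD3. These pair with SMAD4, enter the nucleus and act on target genes together with AP-1 and other factors, and a set of induced inhibitors then shuts the signal down. RepSox occupies the kinase of the type I receptor, so that a receptor with bound ligand no longer phosphorylates SMADs. In epithelial cells the pathway is known for halting the cell cycle, for inducing matrix and integrin genes, and for epithelial-mesenchymal transition, and colorectal tumours often lose parts of it. SW480 is known as a SMAD4-deficient line, and SMAD4 had 117 counts over all 24 libraries, too few to be tested.

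The labels were checked first. Reads of TET2 came to 22.5 and 23.8 CPM (counts scaled to library size with TMM) with TGFB1 and 10.3 and 17.7 CPM with RepSox in vector cells. In Tet2CD cells, where the virus supplies part of these reads, they came to 827 and 2640 CPM and to 270 and 1690 CPM. In all 8 libraries the colorectal epithelial markers EPCAM and KRT8 were abundant, EPCAM at 231 TPM or more and KRT8 at 3456 TPM or more (TPM is scaled for transcript length), whereas the endothelial markers CDH5 and KDR, the B cell marker MS4A1 and the globin HBB were at 0. Other markers of these cell types and of fibroblasts had reads. The endothelial marker EGFL7 was at 43.0 to 91.7 TPM with TGFB1 and at 43.8 to 137 TPM with RepSox. The fibroblast marker FBLN1 was at 10.1 to 92.9 and 13.7 to 106 TPM, and the globin HBA1 at 0 to 18.9 and 13.0 to 23.8 TPM. Of the fibroblast, endothelial and blood cell markers 5 of 10, 4 of 8 and 5 of 12 could be tested, and none was called between the treatments (1 fibroblast marker was lower without the 3 libraries described next). Their summed levels overlapped between the arms: 18.7 to 102 TPM with TGFB1 and 19.2 to 117 TPM with RepSox for fibroblast markers, 45.6 to 109 and 48.3 to 143 TPM for endothelial markers, and 8.93 to 34.0 and 25.8 to 36.3 TPM for blood cell markers. The libraries held 2146123 to 4199283 counts, and 15302 of 33382 listed genes had enough to be tested. The Tet2CD libraries numbered replicate 1 stood apart. Ribosomal protein genes took 12.6% (TGFB1) and 16.1% (RepSox) of their counts against 6.15% to 7.91% in the other 6 libraries, and across genes the SD of the log2 difference between replicates was 0.97 and 1.13 in Tet2CD cells against 0.47 and 0.54 in vector cells. The ribosomal share averaged 7.87% with TGFB1 and 9.55% with RepSox (exact permutation test within construct, two-sided, p = 0.389, where the smallest possible p is 0.0556). Counts or medians of list members are therefore also given without the 3 SW480 Tet2CD replicate 1 libraries, the DMSO library included. That fit leaves 1 TGFB1 and 1 RepSox library in Tet2CD cells, so its spread comes from the other groups alone. The libraries were chosen for omission after they were seen to vary, and the fit is no independent repeat. Far more of all genes passed in it, as given below, and its list counts are to be read beside that share.

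With TGFB1 the feedback gene PMEPA1, the angiogenic factor gene VEGFA, the collagen gene COL27A1 and the glycolytic gene LDHA were higher than with RepSox, and the pseudoreceptor gene BAMBI, the basal keratin gene KRT5 and the serine protease gene PRSS33 were lower. In all, 186 genes were higher and 127 lower, 313 together or 2.05% of the genes tested (1.22% higher and 0.83% lower, edgeR's quasi-likelihood test, Benjamini-Hochberg adjusted p under 0.05). Differences of at least 2-fold were found for 65 of the higher and 49 of the lower genes. Within both constructs the TGFB1 libraries lay wholly above the RepSox libraries for 690 of all genes tested (4.51%) and wholly below for 523 (3.42%). Of the called genes 159 higher and 95 lower ones were separated in this way.

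In bulk RNA a change in the number of cells in a given state cannot be told apart from a change of RNA per cell. How many genes passed rested heavily on which libraries estimated the spread. The main fit took the spread from all 24 libraries. When only the 12 SW480 libraries were fitted 17 genes passed, and with the 8 compared libraries and construct as an additive term 0 of 13890 passed (1037 at an unadjusted p under 0.05), whereas pairing each TGFB1 library with the RepSox library of its construct and library number set gave 1729. Without the 3 libraries that stood apart 881 genes were higher and 941 lower, 11.6% of 15769, and 303 of the 313 genes were called again. The direction of each of the 59 called genes that the text may name was the same under all alternatives in which it could be fitted. These alternatives reuse the same libraries, and part of these genes were picked because their libraries were apart within each construct. The unchanged direction is therefore no independent support.

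**Figure D1:**
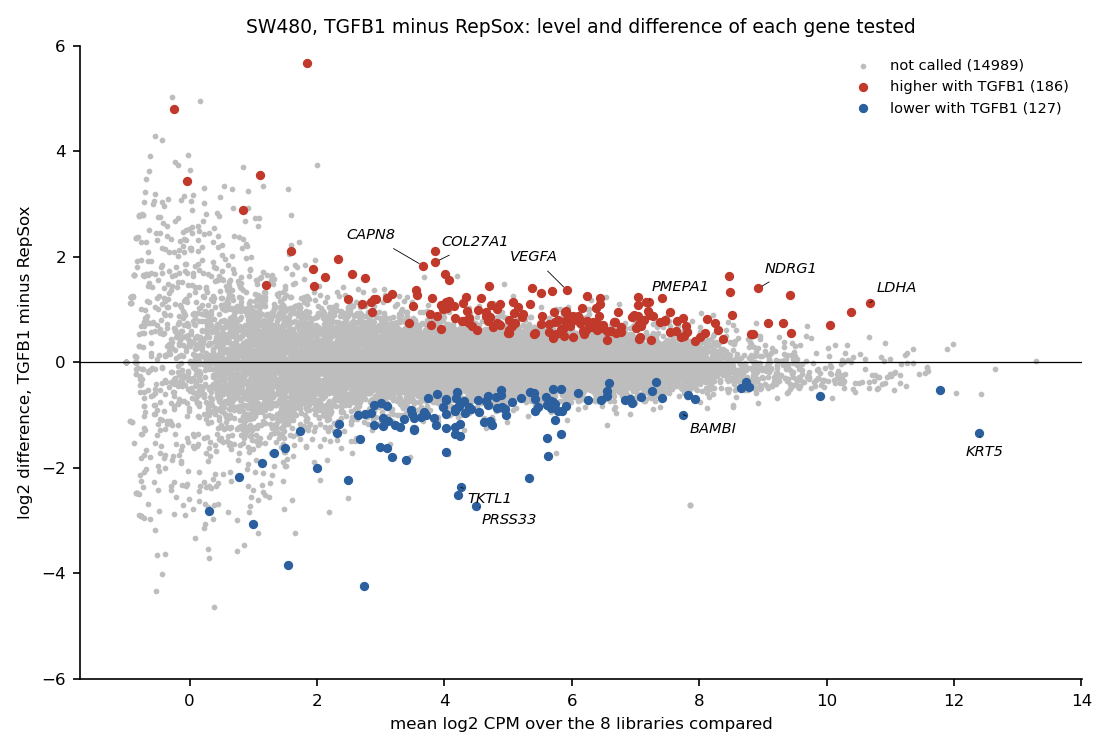
Difference between TGFB1 and RepSox (log2, vertical axis) against the mean level over the 8 libraries (log2 CPM, horizontal axis) for 15302 genes in SW480. Red and blue points are the 186 genes called higher and the 127 called lower with TGFB1, grey points those not called, and the largest differences lie among genes at low levels, at the left.

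Ligands and activators came first in the pathway. The TGFB1 gene itself, whose transcript is the cell's own since the treatment added protein, was at 112, 126, 185 and 114 CPM with TGFB1 (vector, vector, Tet2CD, Tet2CD, the order used below) and at 64.9, 54.5, 133 and 77.4 CPM with RepSox. Its libraries were separated in vector cells and overlapped in Tet2CD cells, and it was the 1 of 15 tested members that rose (0.76, SE 0.18, adjusted p = 0.0405). The latent TGF-beta binding protein gene LTBP4 just missed the threshold (0.59, SE 0.15, adjusted p = 0.0615) although its 4 TGFB1 libraries, at 206 to 256 CPM, were above all RepSox libraries, at 134 to 184 CPM. The median of the list was 0.26, beside 0.01 for all genes tested, of which 2.05% were called, and a larger share without the 3 libraries. When the 3 libraries were left out 5 members rose, LTBP4 among them (adjusted p = 0.0227), and 2 fell. INHBA, NODAL and LRRC32 were too low to be tested.

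Receptor calls stand beside 2.05% of all genes tested, and a larger share without the 3 libraries. Among 10 tested receptors the BMP type II receptor gene BMPR2 rose (1.02, SE 0.24, adjusted p = 0.0401). It was at 191, 159, 57.6 and 115 CPM with TGFB1 and at 70.7, 101, 25.4 and 58.4 CPM with RepSox, so that the Tet2CD libraries overlapped narrowly. The receptor pair for TGF-beta was measured without a call: TGFBR1, whose product RepSox inhibits, had a value of 0.16 (SE 0.24, adjusted p = 0.77) and TGFBR2 a value of 0.51 (SE 0.31, adjusted p = 0.43). In length-scaled terms TGFBR1 averaged 26.4 TPM with TGFB1 and 18.7 TPM with RepSox, and TGFBR2 17.0 and 11.5 TPM. The list median was 0.30, and without the 3 libraries 2 members rose, BMPR2 and TGFBR2 (adjusted p = 0.0335 for TGFBR2).

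None of the 9 tested SMADs and partners was called (median 0.23), where 2.05% of all genes tested were, and more without the 3 libraries. SMAD2 (0.08, SE 0.16) and SMAD3 (0.23, SE 0.16), the receptor-regulated SMADs of the TGF-beta branch, and SMAD5 (0.70, SE 0.32) of the BMP branch had adjusted p of 0.847, 0.489 and 0.301. With the 3 left out 2 members rose, SMAD5 among them (adjusted p = 0.0101). The SMAD partner gene FOXH1 was at 23.6 CPM in 1 Tet2CD RepSox library and at or below 1.63 CPM in the other 7, with no count in 4 of them.

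The feedback inhibitors held the clearest pair of the pathway. PMEPA1, which encodes a membrane protein that keeps SMADs from the receptor, was at 177, 180, 236 and 266 CPM with TGFB1 and at 79.8, 79.2, 110 and 119 CPM with RepSox. Every TGFB1 library was above every RepSox library, and the DMSO libraries, at 89.9, 81.9, 115 and 122 CPM, lay with those of RepSox. The difference was 1.15 (SE 0.10, adjusted p = 3.49e-05), with 1.17 in vector and 1.13 in Tet2CD cells. BAMBI, a receptor-like protein without a kinase domain that dampens TGF-beta signalling, moved the other way (-0.99, SE 0.12, adjusted p = 0.00061). It was at 91.2, 93.5, 287 and 217 CPM with TGFB1 and at 289, 244, 328 and 363 CPM with RepSox, separated within each construct. Both genes passed whichever of the 8 libraries was left out. The other 12 tested inhibitors were not called, and 2.05% of all genes tested were. The list median was 0.34, or 0.31 without the 3 libraries. SMAD7, the inhibitory SMAD that is the textbook feedback target, was at 33.5, 35.8, 22.4 and 29.8 CPM against 29.4, 31.4, 9.69 and 31.8 CPM (0.22, SE 0.27, adjusted p = 0.72), and SKIL, a nuclear SMAD repressor gene, had a value of 0.73 (SE 0.25, adjusted p = 0.149, or 0.0182 without the 3 libraries).

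Effector target genes of TGF-beta, listed whether induced or repressed by it, were called higher in 8 of 34 cases and lower in 0 (median 0.41, 28 of 34 above 0). Of all genes tested 1.22% were called higher and 0.83% lower, and larger shares without the 3 libraries. VEGFA was at 107, 123, 56.7 and 122 CPM against 48.8, 52.2, 17.0 and 42.0 CPM (1.37, SE 0.24, adjusted p = 0.00747), with no overlap in either construct. TGFBI, a secreted matrix adhesion protein gene, followed the construct: it was at 350 and 372 against 282 and 311 CPM in vector cells and at 1300 and 1440 against 477 and 706 CPM in Tet2CD cells. Its difference was 0.28 in vector and 1.21 in Tet2CD cells (0.75 over both, SE 0.12, adjusted p = 0.00279), and the interaction was not called (adjusted p = 0.364). The growth factor genes PDGFA (0.82, SE 0.12, adjusted p = 0.0015) and PDGFB (0.74), the AP-1 subunit gene JUNB (0.87, SE 0.13, adjusted p = 0.0024), the cytokine gene IL11 (1.59, adjusted p = 0.0208) and the urokinase receptor gene PLAUR (0.85, adjusted p = 0.0252) also rose. Members without a call included the matricellular gene CCN2 (0.20), the cell cycle inhibitor genes CDKN1A (0.04) and CDKN2B (0.42), and MYC (0.43). Without the 3 libraries 14 of the 34 rose and 0 fell.

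**Figure D2:**
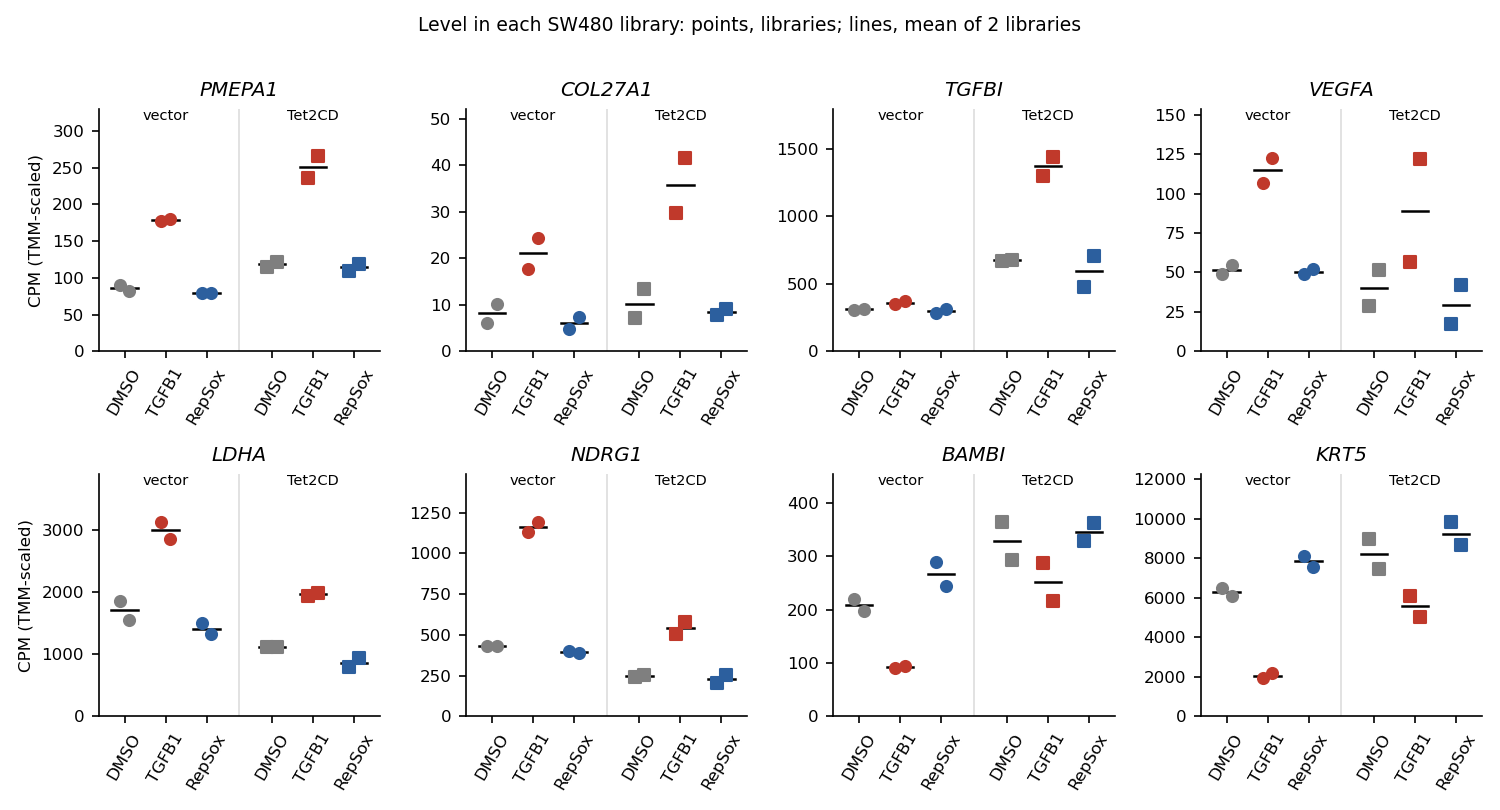
Level of 8 genes in each of 12 SW480 libraries (CPM, linear axes from 0), by construct (circles, vector, and squares, Tet2CD) and treatment (grey DMSO, red TGFB1, blue RepSox). Points are libraries and lines the mean of 2. PMEPA1 with TGFB1 is at 177 to 266 CPM, above all RepSox and DMSO libraries, and COL27A1 with TGFB1 is at 17.7 to 41.6 CPM, above all RepSox libraries.

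Promoter sequences were read for the genes with a RefSeq entry, 143 of the 186 higher and 105 of the 127 lower genes, from 250 bases before to 50 after the start of transcription. Searched on both strands, the palindromic SMAD element GTCTAGAC was present in 1 (0.699%) of the higher and 0 of the lower genes, against 0.148% of 11464 tested genes with a promoter and 0.201% of all 27305 promoters. The CAGA-type SMAD element CAGACA was present in 18.2% of higher and 8.57% of lower genes, against 12.4% of tested genes and 16.8% of all promoters. The AP-1 element (TGAGTCA or TGACTCA) was present in 8.39% of higher and 3.81% of lower genes, against 3.28% and 4.92%, and the TEAD element ACATTCC in 2.8% and 1.9%, against 2.09% and 3.48%. These counts are descriptions without a test, and a match is not a bound site. The promoters of PMEPA1, TGFBI, JUNB, PDGFA and COL27A1, which rose, hold none of these elements. Those of NEK3 and ARHGAP40, which fell, hold a CAGA match. The promoters of 4 genes that rose and hold CAGA or AP-1 letters are shown, with the matches of either strand in capitals, since their products (a calpain protease, the fibronectin receptor subunit, an anchoring collagen and an AP-1 subunit) are described beside their levels. They are from RefSeq on GRCh38.p14, 5′ to 3′ on the strand of the gene.
CAPN8, chr1:223665652-223665951, minus strand: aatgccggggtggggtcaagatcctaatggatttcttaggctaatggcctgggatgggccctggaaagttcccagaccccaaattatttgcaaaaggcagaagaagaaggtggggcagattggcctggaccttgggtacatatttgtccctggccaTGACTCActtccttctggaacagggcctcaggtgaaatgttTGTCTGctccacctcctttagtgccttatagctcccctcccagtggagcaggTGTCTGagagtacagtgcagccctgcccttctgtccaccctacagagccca
ITGA5, chr12:54419217-54419516, minus strand: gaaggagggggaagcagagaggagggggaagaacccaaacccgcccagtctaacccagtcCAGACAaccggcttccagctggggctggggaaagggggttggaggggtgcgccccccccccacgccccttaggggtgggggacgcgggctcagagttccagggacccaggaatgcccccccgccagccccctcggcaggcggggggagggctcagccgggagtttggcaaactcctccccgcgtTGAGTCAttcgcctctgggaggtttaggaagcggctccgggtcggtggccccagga
COL7A1, chr3:48595280-48595579, minus strand: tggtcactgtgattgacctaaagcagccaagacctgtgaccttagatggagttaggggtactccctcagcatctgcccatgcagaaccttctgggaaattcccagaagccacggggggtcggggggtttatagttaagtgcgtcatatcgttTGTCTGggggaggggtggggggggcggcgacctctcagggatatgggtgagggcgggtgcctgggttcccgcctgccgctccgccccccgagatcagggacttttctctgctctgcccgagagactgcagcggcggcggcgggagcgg
FOSL2, chr2:28392608-28392907, plus strand: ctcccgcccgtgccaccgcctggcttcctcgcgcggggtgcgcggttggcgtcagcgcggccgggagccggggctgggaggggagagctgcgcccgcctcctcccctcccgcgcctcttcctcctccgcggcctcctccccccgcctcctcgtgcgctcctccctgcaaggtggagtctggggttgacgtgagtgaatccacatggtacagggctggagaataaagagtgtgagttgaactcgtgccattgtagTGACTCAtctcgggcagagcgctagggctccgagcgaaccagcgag

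CAPN8, with CAGA letters at 2 places and an AP-1 match, was at 26.9, 36.3, 18.6 and 14.9 CPM with TGFB1 and at 10.0, 12.3, 3.03 and 4.09 CPM with RepSox (1.83, SE 0.22, adjusted p = 0.00055). Every TGFB1 library was above every RepSox library. The fibronectin receptor gene ITGA5 was at 205, 234, 132 and 130 CPM against 114, 112, 83.6 and 66.0 CPM (0.89, SE 0.15, adjusted p = 0.00416), again without overlap. COL7A1, the collagen that anchors epithelium to stroma, was at 44.0, 59.6, 94.0 and 84.9 CPM against 15.8, 28.6, 36.3 and 23.4 CPM (1.41, SE 0.25, adjusted p = 0.00681). FOSL2 was at 319, 378, 99.4 and 189 CPM against 138, 174, 52.7 and 79.1 CPM (1.14, SE 0.19, adjusted p = 0.00486), separated within each construct and higher in vector cells under both treatments. These 4 genes passed whichever library was left out.

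Among other genes of matrix and adhesion, calls were more frequent in integrin subunits than in mesenchymal and matrix genes. Of all genes tested 2.05% were called with all libraries, and a larger share without the 3. COL27A1, a fibrillar collagen gene and the third largest increase under the rule for naming, was at 17.7, 24.4, 29.8 and 41.6 CPM with TGFB1 and at 4.85, 7.45, 7.87 and 9.05 CPM with RepSox (1.90, SE 0.25, adjusted p = 0.000943). Of 14 integrin subunits 3 rose and 0 fell (median 0.52, 13 of 14 above 0): ITGA5, the hemidesmosome subunit gene ITGB4 (0.75, SE 0.13, adjusted p = 0.00486) and the collagen receptor gene ITGA10 (1.68, SE 0.42, adjusted p = 0.0494), and without the 3 libraries 9 rose. Of 24 mesenchymal and matrix genes the collagen cross-linking enzyme gene LOXL2 rose (1.11, SE 0.23, adjusted p = 0.0164), and 0 fell, against 3 and 1 without the 3 libraries. VIM, the mesenchymal intermediate filament gene, was at 782, 778, 922 and 731 CPM against 639, 543, 662 and 640 CPM, above in every library and yet uncalled (0.37, SE 0.13, adjusted p = 0.147). The ecto-nucleotidase gene NT5E was the 1 of 13 YAP/TEAD targets that rose (1.22, SE 0.25, adjusted p = 0.0164), with 48.6 and 47.1 against 10.3 and 8.62 CPM in vector cells but 7.46 and 10.5 against 6.06 and 10.2 CPM in Tet2CD cells. Of these targets 4 rose without the 3 libraries.

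Epithelial identity genes had 0 calls with all libraries and a few without the 3 that stood apart. Lists this small can hold 0 calls where 2.05% of all genes tested pass. The calls without the 3 are to be read beside the larger share of all genes that passed there. None of 29 tested junction genes passed with all libraries (median 0.01), against 1 higher and 2 lower without the 3, and the E-cadherin gene CDH1 was at 71.4, 63.4, 96.5 and 195 CPM with TGFB1 and at 90.4, 107, 92.7 and 136 CPM with RepSox (-0.10, SE 0.18, adjusted p = 0.815). The vector libraries were lower with TGFB1 and the Tet2CD libraries overlapped. With all libraries none of 8 epithelial regulators and none of 6 tested transcription factors of epithelial-mesenchymal transition passed. Leaving out the 3 libraries, 2 of the regulators were higher, and of the transcription factors ZEB1 was higher (adjusted p = 0.00622) and SNAI1 lower (adjusted p = 0.0142). Among the latter SNAI1 had a value of -0.80 (SE 0.26, adjusted p = 0.132), SNAI2 of 0.07 and ZEB1 of 1.27 (SE 0.41, adjusted p = 0.131), all at 16.3 CPM or less, and TWIST1 had no count in any library of the series.

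Of 12 keratins 2 fell and 1 rose with TGFB1 (median -0.59, 2 of 12 above 0). Of all genes tested 0.83% fell and 1.22% rose, and larger shares did so without the 3 libraries. When the 3 libraries were omitted 6 fell, the simple epithelial keratin gene KRT8 among them (adjusted p = 0.000477, or 0.151 with all libraries), and 1 rose. The basal keratin gene KRT5, among the most abundant transcripts of these cells, was at 1920, 2190, 6120 and 5020 CPM with TGFB1 and at 8100, 7590, 9840 and 8670 CPM with RepSox (-1.33, SE 0.28, adjusted p = 0.0195). All TGFB1 libraries were below all RepSox libraries, and those of vector cells were the lowest. KRT6A also fell (-1.43, adjusted p = 0.0149), though its near-identical copies may share its reads, and KRT15 rose (0.84, SE 0.18, adjusted p = 0.0187). Outside that list KRT39 rose (2.11, SE 0.40, adjusted p = 0.0105) from 0.584 to 2.73 CPM with RepSox to 3.58 to 7.32 CPM with TGFB1, and KRT71 fell (-1.70, SE 0.27, adjusted p = 0.00806).

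Among the largest decreases were several enzyme genes. PRSS33, a serine protease gene, was at 1.79, 1.90, 48.0 and 26.9 CPM with TGFB1 and at 21.8, 18.2, 202 and 103 CPM with RepSox (-2.72, SE 0.27, adjusted p = 6.81e-05), separated within each construct. Another serine protease gene, PRSS56, was at 4.10, 4.88, 106 and 49.1 CPM against 54.9, 38.0, 184 and 134 CPM (-2.20, SE 0.26, adjusted p = 0.000854). TKTL1, a transketolase-like gene, was at 0, 0.813, 118 and 114 CPM against 5.46, 5.36, 247 and 240 CPM (-2.37, SE 0.33, adjusted p = 0.0024). All 3 stood several times higher in Tet2CD than in vector cells under either treatment. ALPI, the intestinal alkaline phosphatase gene and the 1 of 16 tested intestinal differentiation genes that fell, had no count in either vector TGFB1 library and 4.55 and 1.40 CPM in those with RepSox. In Tet2CD cells it was at 4.56 and 3.66 against 7.87 and 11.7 CPM (adjusted p = 0.016 over both constructs, with near-identical copies in the genome). The median of the intestinal genes was -0.38, or -0.21 without the 3 libraries, and 0.83% of all genes tested fell. The tumour antigen gene PRAME likewise had no count in the vector TGFB1 libraries and 2.12 and 1.40 CPM with RepSox (adjusted p = 0.0103). The acute phase gene SAA1 fell (-2.52, SE 0.55, adjusted p = 0.0451) and the linker histone gene H1-2 fell (-1.78, SE 0.38, adjusted p = 0.0202), both with their highest level in the Tet2CD RepSox library that stood apart, at 271 and 207 CPM, and both with close copies that may share reads.

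**Figure D3:**
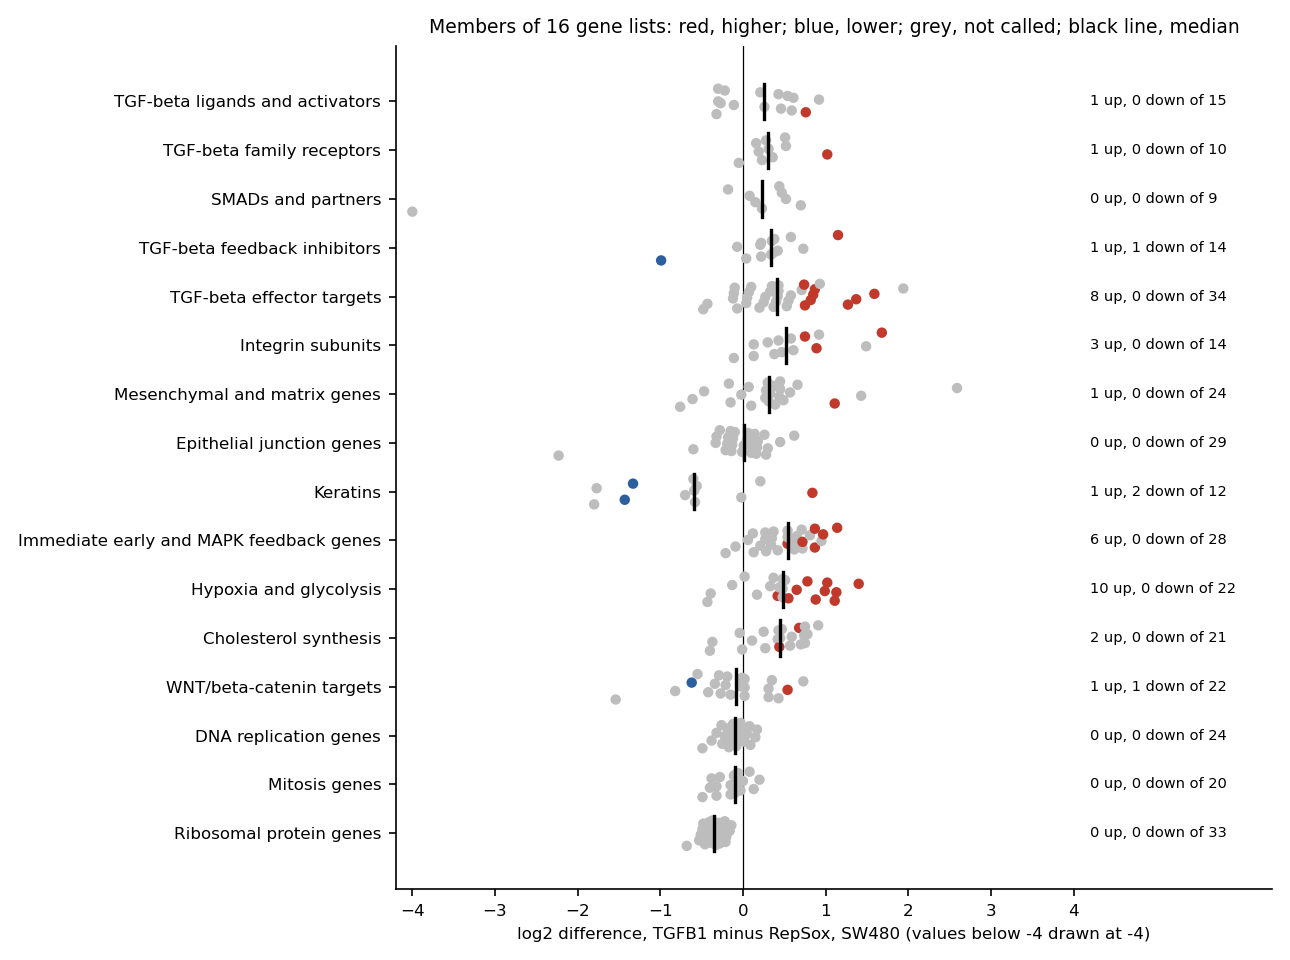
Difference between TGFB1 and RepSox (log2, horizontal axis) for the tested members of 16 gene lists in SW480. Red points were called higher, blue lower and grey not called, black lines are medians the text at the right gives the calls, and FOXH1 (-4.63, not called) is drawn at the left edge. The hypoxia and glycolysis list has the most calls, 10 of 22, and all 33 ribosomal protein genes lie below 0 without a call.

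Hypoxia and glycolysis genes had the highest count of any list, 10 higher and 0 lower of 22 (median 0.48, 19 of 22 above 0). Among all genes tested 1.22% were higher and 0.83% lower, and larger shares without the 3 libraries. LDHA, the lactate dehydrogenase subunit that makes lactate from pyruvate, was at 3140, 2860, 1940 and 1990 CPM with TGFB1 and at 1500, 1330, 799 and 936 CPM with RepSox (1.13, SE 0.10, adjusted p = 3.49e-05). NDRG1, a stress-responsive gene that hypoxia induces, was at 1130, 1190, 502 and 578 CPM against 398, 390, 207 and 252 CPM (1.40, SE 0.13, adjusted p = 5.55e-05). Every TGFB1 library of both genes exceeded every RepSox library. EGLN3, the prolyl hydroxylase gene that is itself a target of the hypoxia-inducible factors it marks for decay, was at 85.5, 66.4, 150 and 122 CPM against 50.1, 40.1, 56.3 and 54.6 CPM (1.02, SE 0.14, adjusted p = 0.000943). The kinase genes PFKFB4 (0.88), PFKP (0.65), PGK1 (0.55) and HK1 (0.42) and the carbonic anhydrase gene CA9 (0.99) also rose, and PDK1 and PFKFB3 passed at the very edge (adjusted p = 0.049974 each). Members without a call included the glucose transporter gene SLC2A1 (0.37), GAPDH (-0.13), ENO1 (0.02) and BNIP3 (-0.43). Without the 3 libraries 14 rose and 1 fell.

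Immediate early and MAPK feedback genes were called higher in 6 of 28 cases and lower in 0 (median 0.54, 26 of 28 above 0): JUNB, FOSL2, the zinc finger genes EGR1 and KLF6 (0.97), the phosphatase gene DUSP5 (0.72) and IER3 (0.54). Among all genes tested 1.22% were higher and 0.83% lower, and larger shares without the 3 libraries. EGR1 was at 170, 210, 34.8 and 58.0 CPM with TGFB1 and at 80.7, 92.0, 22.4 and 37.7 CPM with RepSox (0.87, SE 0.17, adjusted p = 0.0119), overlapping in Tet2CD cells, where 34.8 CPM lay below 37.7 CPM. FOS (0.65) and JUN (0.71) did not pass with all libraries (adjusted p = 0.267 and 0.0747) and passed without the 3 (0.0181 and 0.00143), when 13 members rose and 1 fell. CSRNP1, a transcriptional regulator gene outside the list, was among the largest increases, with 51.5, 46.3, 16.6 and 16.5 CPM against 12.4, 9.08, 4.85 and 9.05 CPM (1.68, SE 0.20, adjusted p = 0.000577).

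Lipid, stress and inflammatory lists held 0 to 2 calls each with all libraries, beside 2.05% of all genes tested and a larger share without the 3. Of 21 cholesterol synthesis genes CYP51A1 (0.68) and DHCR7 (0.44) rose and 0 fell (median 0.45), and without the 3 libraries 12 rose. The desaturase gene SCD was the 1 of 23 fatty acid genes that rose (0.70, SE 0.17, adjusted p = 0.0414), against 4 higher and 2 lower without the 3 libraries. STC2, a secreted glycoprotein gene, (0.98, SE 0.12, adjusted p = 0.00061) and DDIT4, a brake on mTOR signalling, (0.81, SE 0.15, adjusted p = 0.00825) were the 2 of 17 integrated stress response genes that rose, while the median of that list was -0.25 and 2 rose and 3 fell without the 3 libraries. NFKB2 was the 1 of 13 chemokine and NF-kB response genes called (0.53, SE 0.12, adjusted p = 0.0302), against 3 higher and 1 lower without the 3 libraries. None of 19 interferon-stimulated, 13 heat shock, 13 Notch pathway or 26 cytoskeletal and SRF target genes and none of 8 BMP ligands, antagonists and targets passed with all libraries. Without the 3 libraries 4 interferon-stimulated genes were lower, 5 cytoskeletal genes higher and 3 lower, 1 heat shock gene lower, 1 Notch gene higher, and 1 BMP gene higher and 2 lower.

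Proliferation genes had 0 calls and WNT targets 2 with all libraries, where 2.05% of all genes tested were called. Both had more calls without the 3 libraries, as had all genes tested. None of 24 DNA replication genes passed (median -0.10, CDC45 at -0.49 with an adjusted p of 0.0865), none of 20 mitosis genes (median -0.10, CDC20 at -0.49 with an adjusted p of 0.131) and none of 16 CDK inhibitors and G1 cyclins. Without the 3 libraries 1 replication gene (CDC45, adjusted p = 0.046) and 3 mitosis genes (CDC20 among them, adjusted p = 0.0121) were lower, and 1 CDK inhibitor or cyclin was higher and 3 were lower. Of 22 WNT/beta-catenin targets the receptor tyrosine kinase gene EPHB2 rose (0.54, SE 0.11, adjusted p = 0.0159) and RNF43, a ubiquitin ligase that removes WNT receptors, fell (-0.62, SE 0.13, adjusted p = 0.0172), and without the 3 libraries 2 rose and 7 fell. The beta-catenin gene CTNNB1 was at 845, 844, 544 and 924 CPM with TGFB1 and at 1370, 1470, 571 and 1050 CPM with RepSox, lower in vector cells and overlapping in Tet2CD cells (-0.45, SE 0.17, adjusted p = 0.209, or 0.000895 without the 3 libraries). TET2 (0.77, adjusted p = 0.411), RORA (0.65, adjusted p = 0.246) and SPARC (0.57, adjusted p = 0.535), which the study follows, were not called with all libraries. Reads of TET2 in Tet2CD cells, given above, were far more than in vector cells and overlapped between the arms. They include those of the construct, so the TET2 value is not that of the cell's own gene alone. None of 12 DNA methylation enzymes, TET2 included, passed with all libraries, and 3 were higher without the 3. The 33 ribosomal protein genes had 0 calls and a median of -0.35, with none above 0. The 2 replicate 1 Tet2CD libraries with high ribosomal shares move with this list, and without the 3 libraries its median was -0.25 with 6 genes lower. The part of library composition in it was not tested.

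The 4 DMSO libraries place both treatments. TGFB1 against DMSO gave 112 genes higher and 48 lower (1.05% of the genes tested), and with total counts and no further scaling 72 higher and 63 lower. RepSox against DMSO gave 0 calls with edgeR (0%), 433 genes at an unadjusted p under 0.05, 1 call with DESeq2 and 0 with limma voom. These comparisons share the DMSO libraries, so values are given side by side only. PMEPA1 was at 1.07 with TGFB1 and -0.08 with RepSox, each against DMSO, BAMBI at -0.78 and 0.22, NDRG1 at 1.28 and -0.11 and KRT5 at -1.09 and 0.25. In LDHA (0.81 and -0.32) and PRSS33 (-1.72 and 0.99) the RepSox value was a larger part of the whole.

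Vector and Tet2CD cells share no library, and the difference was computed in each. In vector cells 114 genes were higher and 123 lower (1.55%), and in Tet2CD cells 15 and 2 (0.111%). Replicates varied more in Tet2CD cells, but both constructs were tested with the same spread per gene, estimated over all 24 libraries. Why fewer genes passed in Tet2CD cells was not tested. Fitted on their own, the vector libraries gave 1216 calls of 13039 genes and the Tet2CD libraries 0 of 12998. The interaction test called 3 genes (0.0196%): the sialyltransferase gene ST6GALNAC2, the ubiquitin ligase gene NEURL1B and the kinase gene NEK3. Of the 114 genes higher in vector cells 104 (91.2%) had the same sign in Tet2CD cells, with medians of 1.15 and 0.61, and of the 123 lower ones 97 (78.9%), with medians of -1.34 and -0.30, beside 64.6% of all genes. Of the 17 genes called in Tet2CD cells the estrogen receptor gene GPER1 (1.58, against 0.24 in vector cells) and the transporter gene ABCC3 (1.09, against 0.22) had small values in vector cells, and PMEPA1, LDHA, NDRG1, COL27A1, CAPN8 and PRSS33 were called in both constructs.

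**Figure D4:**
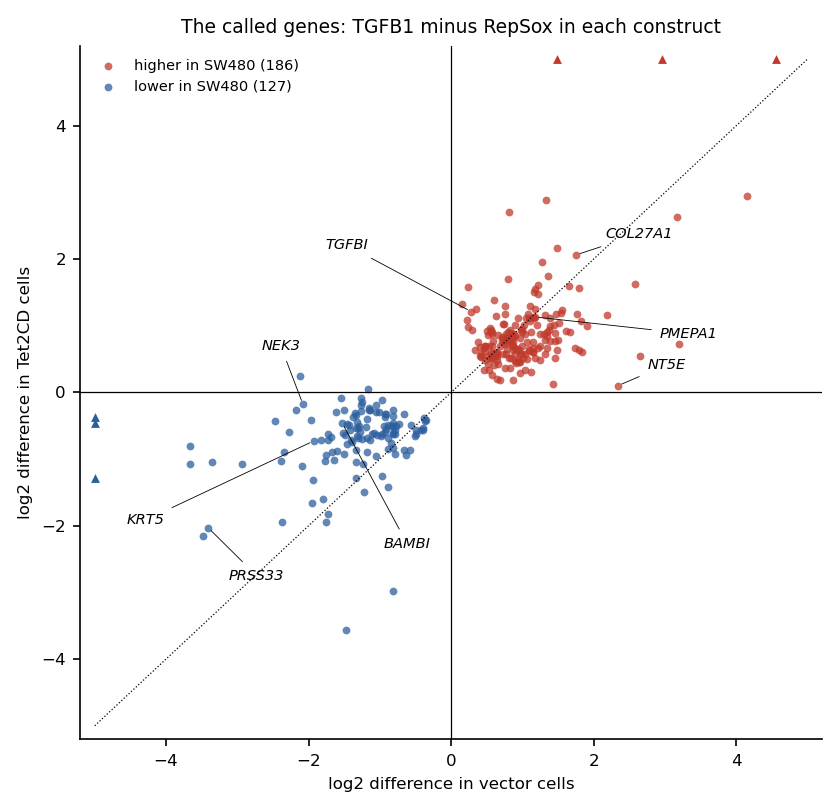
Difference between TGFB1 and RepSox (log2) in vector cells (horizontal axis) and in Tet2CD cells (vertical axis) for the 186 higher (red) and 127 lower (blue) genes. Triangles mark values beyond the axes and the dotted line equal values. Higher genes scatter about that line, and most lower genes lie nearer 0 in Tet2CD than in vector cells. The genes were called on the mean of both differences, which favours equal signs. Over all 15302 genes tested the Pearson correlation of the 2 differences was 0.16.

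The same comparison in SW620, with no library shared, called 2226 genes higher and 2224 lower (29.1%), and the test of the difference between the lines called 1380 genes (9.02%). Of the 186 genes higher in SW480, 163 (87.6%) had the same sign in SW620 and 121 were called higher there, and of the 127 lower ones 92 (72.4%) and 56, beside 61.4% of all genes with the same sign. LDHA was at 1.13 in SW480 and 0.87 in SW620, with no call of a difference (adjusted p = 0.281), whereas EGLN3 was at 1.02 and 3.27 (difference -2.25). PMEPA1 was at 1.15 in SW480 but fell in SW620 (-0.60, adjusted p = 0.0004), a difference of 1.74 between the lines. TGFBI (0.75 and -0.78) also rose in SW480 and fell in SW620, among 8 genes of this kind, and its line difference was called. In the other direction 9 genes fell in SW480 and rose in SW620, among them 3 histone genes, H1-2, H2BC4 and H2BC12, ARHGAP40 and the monoamine oxidase gene MAOB. DNA replication genes parted most clearly: 0 of 24 were called in SW480, 22 fell in SW620 (median -1.28), and 18 differed between the lines.

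**Figure D5:**
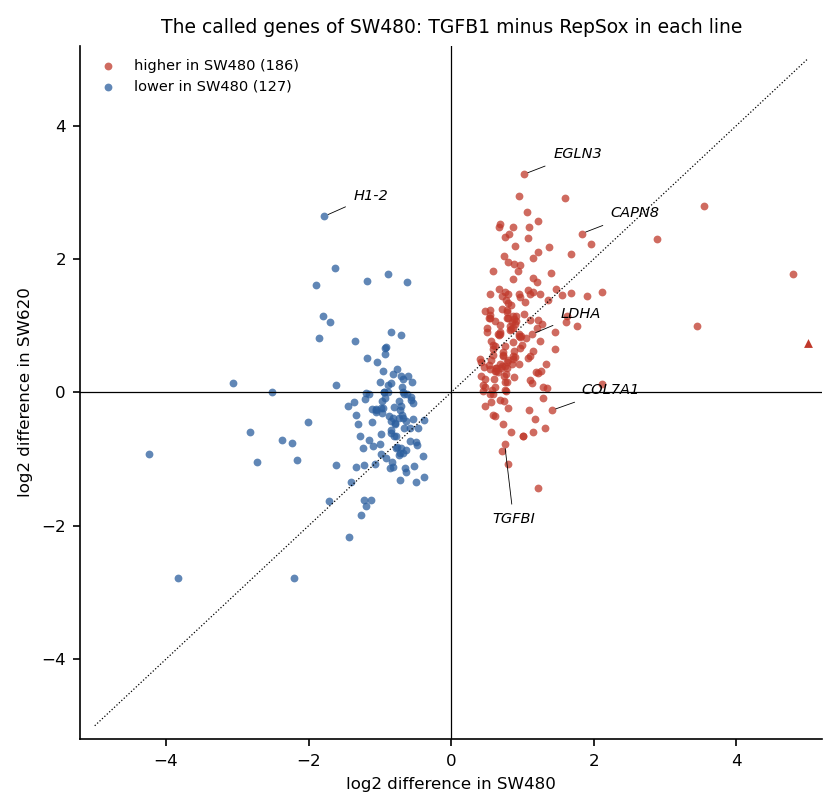
Difference between TGFB1 and RepSox (log2) in SW480 (horizontal axis) and SW620 (vertical axis) for the 313 genes called in SW480, higher in red and lower in blue. The triangle marks a value beyond the axis and the dotted line equal values. Most red points lie above 0 in SW620, while TGFBI (-0.78) lies below.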

How the data were processed

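RNA of 24 libraries (2 per line, construct and treatment) had been extracted with TRIzol, prepared with TruSeq and sequenced on a NextSeq 500. The authors trimmed reads with Trimmomatic and quantified them with RSEM and bowtie2 on an Ensembl transcriptome. The submitters' notes name Bowtie, RSEM and mm10, although all gene identifiers are human, without versions. The deposited expected counts were rounded to whole numbers for all gene tests. The deposited TPM values served to describe levels of marker genes and of TGFBR1 and TGFBR2, also between the TGFB1 and RepSox arms. FPKM values were not used. No source used here gives the strand setting of the counting, so overlapping genes cannot be told apart. Symbols came from a table of gene names, or from GENCODE 29 where that table had none (32777 of 33382 identifiers). The main test was edgeR's (4.0.16, R 4.3.3) quasi-likelihood F test with TMM scaling and filterByExpr, with 12 group means over 24 libraries (12 residual degrees of freedom, common biological coefficient of variation 21.3%) and a Benjamini-Hochberg threshold of 0.05 over all genes tested. CPM were TMM-scaled. DESeq2 (1.42.0), limma voom (3.58.1) and other choices were alternatives, and the scripts were tested on simulated data. Whether libraries are separate cultures is not in the labels, and p-values therefore reflect library-to-library spread, which may be technical. Depth was 2146123 to 4410567 counts per library.

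Genes were named by a rule: up to 15 of the largest increases and 15 of the largest decreases among called genes whose TGFB1 and RepSox libraries were apart in each construct and whose mean log2 CPM reached 1, up to 3 risen and 3 fallen members per list (or 2 as values), all members of 4 pathway lists, 20 further genes, and up to 5 per direction for each interaction. Others were chosen after their values were seen. The comparison, members and lists were chosen with earlier results of these data known. Labels give no replicate numbers, and replicates were numbered in accession order. Some genes of the lists are not reported here.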

Additional observations from a re-analysis of the deposited data

Results flagged for a closer look

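The interaction of treatment and construct in SW480 (edgeR, over all genes tested) was called for 3 genes, each given as the Tet2CD difference minus the vector difference. For ST6GALNAC2, a sialyltransferase gene, it was 3.0 (adjusted p = 0.0277): TGFB1 and RepSox libraries were at 0.768 and 1.35 against 4.85 and 5.36 CPM in vector cells and at 98.6 and 74.7 against 56.3 and 46.4 CPM in Tet2CD cells. For NEURL1B it was 2.63 (adjusted p = 0.000638), with 11.8 and 11.4 against 31.6 and 34.2 CPM in vector cells and 95.3 and 120 against 44.8 and 53.1 CPM in Tet2CD cells. For NEK3 it was 1.89 (adjusted p = 0.0277), with 7.43 and 8.67 against 34.3 and 33.8 CPM in vector cells and 31.1 and 34.5 against 34.5 and 39.7 CPM in Tet2CD cells.

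The difference between the lines (SW480 minus SW620, edgeR) is given for 10 genes, the largest in each direction under the rule for naming. Where an SW620 arm had no count in any library, the fitted value depends on the prior count and is no bound. SLC7A2 (4.47, adjusted p = 0.0221) had no count in the SW620 TGFB1 libraries and 0.355 to 1.25 CPM with RepSox. SGK1 (4.26, adjusted p = 0.00124) was at 0 to 1.12 CPM with TGFB1 and 2.51 to 4.26 CPM with RepSox in SW620, and at 7.94, 6.50, 1.24 and 1.83 against 1.21, 1.86, 0.606 and 0.876 CPM in SW480. ARHGEF4-AS1 (4.15, adjusted p = 0.00997) and SOX1 (4.01, adjusted p = 0.0443) had no count in the SW620 TGFB1 libraries. CFAP298-TCP10L (4.14, adjusted p = 0.0452) is a read-through gene that overlaps its neighbours and had no count in 3 of the 4 SW480 Tet2CD libraries compared. CDK5R2 (-5.93, adjusted p = 0.00114) had no count with RepSox in SW620, and WNT6 (-5.90, adjusted p = 0.00599) was at 2.72 to 5.76 CPM with TGFB1 and 0 to 0.251 CPM with RepSox there. SULT2B1 was at -5.18 (adjusted p = 0.00495) and SNPH at -4.63 (adjusted p = 0.000269). H1-2 (-4.42, adjusted p = 0.000221) fell with TGFB1 in SW480 and was at 23.1 to 48.1 CPM with TGFB1 against 4.61 to 7.77 CPM with RepSox in SW620.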

How the results depend on the processing

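The 313 calls between TGFB1 and RepSox became 566 with DESeq2, 23 with limma voom, 708 without a filter, 574 with a GC-content offset, 1822 without the 3 Tet2CD replicate 1 libraries, 17 with the 12 SW480 libraries, 0 with the 8 libraries and construct as a term (1037 at an unadjusted p under 0.05), 1729 in 4 pairs (a replicate block, 291 of the 313 among them), 1216 with vector libraries only and 0 with Tet2CD libraries only (52 unadjusted). Leaving out 1 library gave 108 to 2377 calls: 1286 without Tet2CD TGFB1 replicate 1, 170 and 2377 without Tet2CD TGFB1 and RepSox replicate 2, 149 and 108 without vector TGFB1 replicates 1 and 2, and 116 and 152 without vector RepSox replicates 1 and 2. Of the 313 genes 79 passed whichever library was left out. The 3 interaction calls became 8 with total counts, 18 with DESeq2, 1 with voom, 73 without a filter and 6 without the 3 libraries, and 1 to 98 on leaving out a library (98 without Tet2CD RepSox replicate 2, 1 without Tet2CD RepSox replicate 1, either vector TGFB1 library or vector RepSox replicate 1). In SW620 voom gave 7027 and omission of the 3 libraries 7320, and leaving out a library 3280 to 3781. The 1380 line differences became 719 with voom and 3249 without the 3 libraries, and 850 to 2572 on leaving out a library. In SW480 they were 869 and 892 without vector TGFB1 replicate 1 and vector RepSox replicate 2 and 2572 without Tet2CD RepSox replicate 2, and in SW620 850 and 900 without the Tet2CD RepSox libraries, 864 and 917 without the vector TGFB1 libraries and 908 without vector RepSox replicate 1. TGFB1 against DMSO (160) gave 406 with DESeq2, 79 with voom, 297 without a filter, 317 with the GC offset, 1002 without the 3 libraries and 49 to 278 on leaving out a library: 81 and 94 without Tet2CD DMSO replicates 1 and 2, 278 without Tet2CD TGFB1 replicate 1, 49 and 71 without vector DMSO replicates 1 and 2, and 81 and 57 without vector TGFB1 replicates 1 and 2. RepSox against DMSO (0) gave 1 with DESeq2, 38 without a filter and 0 to 11 on leaving out a library (11 without Tet2CD RepSox replicate 2). The cause of these shifts was not tested. No named called gene changed sign in any alternative in which it could be fitted, but all alternatives reuse the same libraries. The naming rule also favours genes whose libraries were apart. The labels give no replicate numbers, so the pairs of the paired fit were formed from the library numbers in the titles, 21 to 32 and 33 to 44, and with these 2 sets as an added term 393 genes passed. Whether a set marks a shared culture or day is not in the labels. Genes under the count filter, such as SMAD4 with 117 counts over 24 libraries, could not be tested at this depth.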
